A study of Bos taurus with 88 samples.

Results

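Whole blood of beef calves born to Charolais × Limousin cows (CL calves) was compared between birth and 48 h of age. The samples were chosen by their labels, which give the breed CL and an age of 0 h or 48 h. They number 14 of the 88 samples of the series, 7 at each age, and each of the 7 calves was sampled at both ages, so every calf served as its own control. The series holds 22 calves, each with blood taken at 4 ages (0, 48, 72 and 168 h). Besides the CL calves these were 7 beef calves of Limousin × Friesian cows (LF calves) and 8 Holstein dairy calves (H calves). CL and LF calves stayed with their dams and suckled freely. H calves were fed colostrum of their own dam by hand, at set shares of body weight that were the same for all of them. The 0 h blood of CL calves was drawn before the first suckling, and the dams of all groups had been vaccinated before calving. The sires of the CL and LF calves were Aberdeen Angus or Charolais bulls, so the group name refers to the cow, and the fits took no account of the sire.

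Antibodies do not cross the placenta of cattle, and a calf is born with almost none in its blood. It takes them up through the gut from colostrum, the first milk, during about the first day of life, together with fat, growth factors and maternal cells. Blood also changes in its own right after birth, as the stress hormones of delivery decline, breathing begins and the mix of neutrophils, lymphocytes and other white cells shifts. RNA of whole blood is a sum over these cells, so fewer cells of a type and less RNA per cell cannot be told apart. Age and feeding changed together, and the effect of colostrum cannot be told apart from that of age. The count files list genes by Ensembl identifier, and no identifier could be matched to a gene symbol here (0 of 24616). Genes are therefore described as groups and by identifier, and the tissue was not checked against marker genes of blood cells.

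Between 18999650 and 26455106 reads fell on genes in the 0 h libraries, and between 21628542 and 27496205 in the 48 h libraries. Levels are given in CPM, in which the counts of each library are scaled by its total and by a normalisation factor (TMM, described below). By the library total alone, 3 counts were worth 0.109 to 0.158 CPM. With the factor, the genes named below had 0.0964 to 0.112 CPM in the CL libraries of 0 h and 48 h where they had 3 counts. Of 8 measures of library composition, 4 differed between ages after adjustment, by an exact two-sided sign-flip permutation test over the 7 calves whose smallest possible p is 0.0156. The share of reads outside genes fell by 3.1 ± 1.54 percentage points from 0 h to 48 h (mean ± SD, n = 7) and was lower in 7 of 7 calves (exact p = 0.0156, adjusted p = 0.0312). The other 3, all higher at 48 h in 7 of 7 calves with the same p-values, were the share of ambiguous reads, the share of counts on the most abundant gene and that on the 100 most abundant genes. The most abundant gene took 3.71% of counts in calf 5 at 0 h, and 6.58% and 7.35% in calves 4 and 5 at 48 h, against 0.697% to 1.61% in the other 11 libraries. Reads mapping to several places made up 15.6% to 18.0% of the same 3 libraries and 7.19% to 11.1% of the others. The part of these differences in the changes given for genes was not tested.

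Levels differed between the ages in a large part of the blood transcriptome. Of 12852 genes with enough counts to be tested, 1017 (7.91%) were higher at 48 h and 1116 (8.68%) were lower, which together made 16.6% of the genes tested. These differentially expressed genes (DEG) had an adjusted p under 0.05 in edgeR's quasi-likelihood test with the calf as a block and changed at least 1.5-fold. The median log2 fold change over all genes tested was -0.0047. The levels of all 7 calves at 48 h lay above all 7 levels at 0 h in 768 genes (5.98%) and below them in 552 genes (4.3%). Of these, 428 and 358 were DEG, and the rest fell short of the fold change or of the adjusted p.

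Age was also the main axis along which the 14 libraries differed. The first principal component of the log2 CPM of all genes tested held 34.2% of the variance and separated the ages in every calf. On it the 0 h libraries lay between -43.6 and -19.0 and the 48 h libraries between 24.3 and 46.8. The 0 h library nearest to the 48 h libraries was that of calf 1, at -19.0, and the next was that of calf 7, at -27.4. The second component held 12.3% of the variance and spread the calves within each age, and calves 2 and 4 had its highest values at both ages. Differences between calves persisted from birth to 48 h, since the deviations of a calf from the means of the 2 ages correlated across genes at 0.246 to 0.689 (Pearson's r over 12852 genes, which are not independent). In 7 of 7 calves the 48 h library correlated best with the 0 h library of the same calf.

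**Figure D1:**
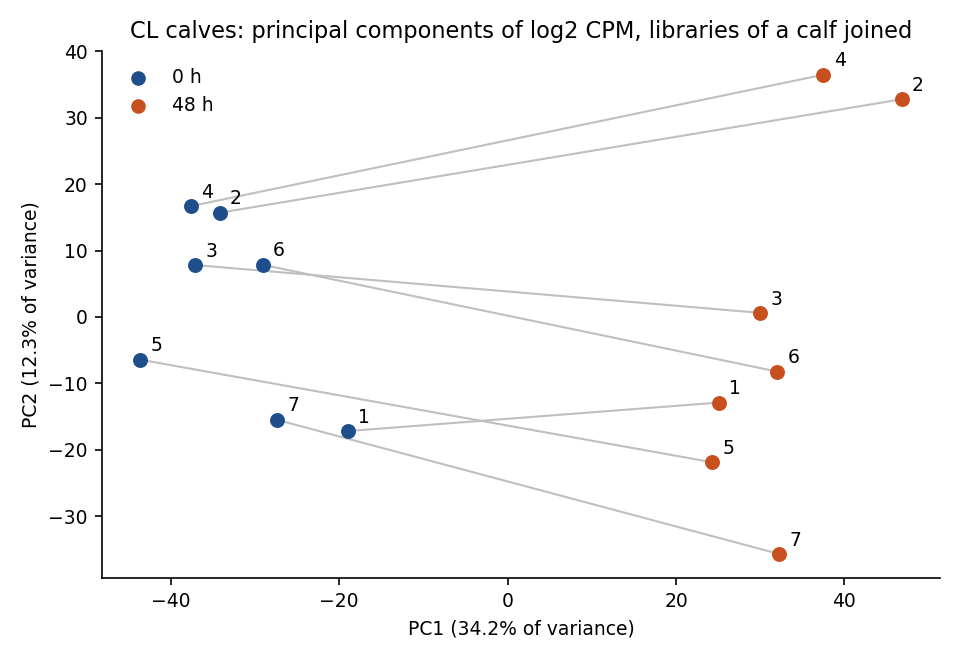
Principal components of the log2 CPM of the 12852 genes tested in the 14 CL libraries, with PC1 on the x axis and PC2 on the y axis. Points are libraries at 0 h (blue) and 48 h (orange), numbered by calf, and grey lines join the libraries of a calf. All 7 calves move from left to right, and calf 1 at 0 h lies nearest to the 48 h libraries on PC1.

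Most DEG changed by less than 4-fold. Among the genes that rose, 519 changed less than 2-fold, 389 between 2-fold and 4-fold, 85 between 4-fold and 8-fold and 24 at least 8-fold. Among those that fell, the numbers were 660, 363, 73 and 20. The median log2 fold change was 0.98 for the rises (25th to 75th percentile 0.74 to 1.45) and -0.91 for the falls (25th to 75th percentile -1.26 to -0.71). The change was in the same direction in all 7 calves for 866 of the 1017 rises and for 758 of the 1116 falls. The paired test in the same calves favours such genes, so these counts are given as a description.

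Called rises were more frequent among genes of low than of high abundance, and falls were spread over low and high abundance. The median level over both ages was 6.69 CPM for the rises and 15.4 CPM for the falls. Among the 3215 genes with the lowest levels (0.42 to 5.95 CPM), 14.9% of genes rose and 12.5% fell. Among the 3213 genes with the highest levels (at least 64.8 CPM), 3.73% rose and 8.22% fell. Low counts scatter more, and the median size of the log2 fold change, without regard to sign, was 0.37 among the former and 0.22 among the latter. When the fold change was left out of account, 18.4% of the most abundant genes had an adjusted p under 0.05 (edgeR) and a rise, and 29.5% had one and a fall. Among the least abundant genes these shares were 17.6% and 14.7%.

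**Figure D2:**
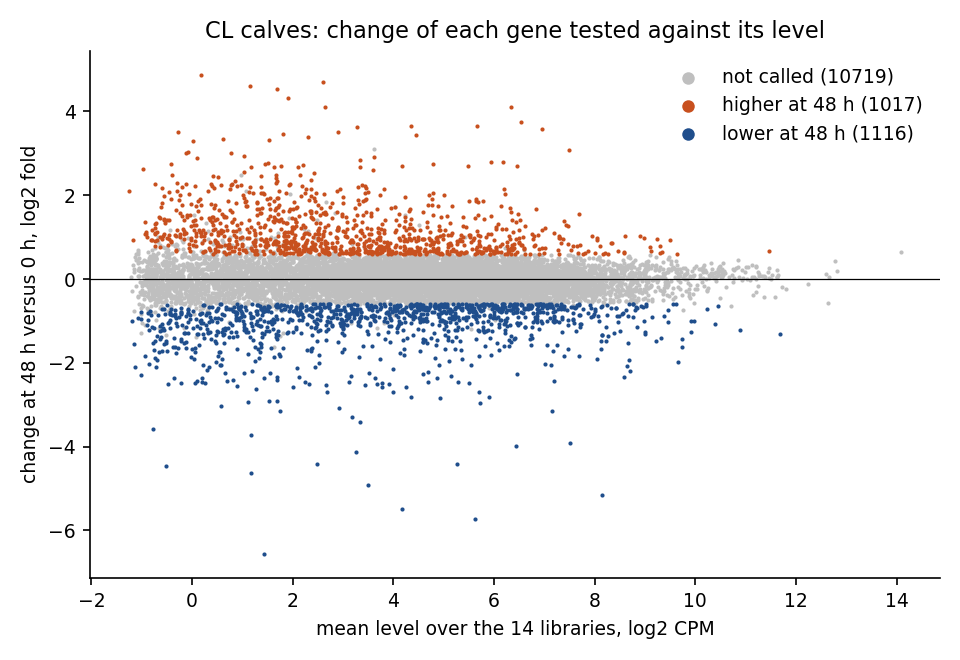
Change of each of the 12852 genes tested, as the log2 fold change at 48 h versus 0 h (y axis), against its mean level in log2 CPM over the 14 CL libraries (x axis). Orange points are the 1017 genes called higher at 48 h, blue points the 1116 called lower and grey points the rest, with falls extending further to the right, among abundant genes, than rises.

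The DEG held a small part of all RNA counted at both ages. Genes that changed less than 1.5-fold are not in these sums, and without that threshold 5350 genes had an adjusted p under 0.05 (edgeR). The genes that rose held 2.11% ± 0.117 of the normalised counts at 0 h and 4.11% ± 0.254 at 48 h (mean ± SD, n = 7), and those that fell held 8.9% ± 1.38 at 0 h and 4.54% ± 0.494 at 48 h. These genes were chosen by that difference, so no test was made of it. Neither change rested on a single gene, since the gene with the largest gain in CPM made up 6.26% of the total gain and the gene with the largest loss 5.77% of the total loss. The 10 genes with the largest gains made up 20.9% of the gain, and the 10 with the largest losses 21.8% of the loss.

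No gene went from no count in any calf at 0 h to a called rise (0 genes), and none from a called fall to no count in any calf at 48 h (0 genes). A single gene in each direction had at most 3 counts in every library at one age and at least 10 in every library at the other. These were also the genes with the largest rise and the largest fall among DEG that changed in the same direction in all 7 calves and reached a mean of 1 CPM.

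The largest rise was that of ENSBTAG00000016698. It had 0 to 3 counts per library at 0 h, 10 in all, and at least 17 at 48 h, 341 in all. Its level at 0 h ran from 0 to 0.112 CPM with a median of 0.0393, which is under the level of 3 counts. At 48 h the levels of calves 1 to 7 were 2.37, 1.17, 0.617, 0.981, 2.3, 1.48 and 3.89 CPM, so the lowest calf at 48 h was above the highest at 0 h. The log2 fold change was 4.88 (SE 0.39, adjusted p = 2.8e-05, edgeR). Since this value depends on how counts near 0 are treated, the ratio of the summed counts, each sum divided by that of the library totals, was also computed, and it was 31.6 with an exact 95% interval of 17.0 to 66.6 that covers counting error only.

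ENSBTAG00000035998 had the smallest p-value among the rises and was far more abundant. Its level ran from 12.4 to 34.2 CPM at 0 h with a median of 17.5, and at 48 h the median was 132 CPM and the highest calf had 201 CPM. On the log2 scale the range was 3.64 to 5.10 at 0 h and 6.80 to 7.65 at 48 h. Calf 2 had the highest level at both ages, and the ages did not overlap. The log2 fold change was 2.7 (SE 0.11, adjusted p = 1.2e-06, edgeR), and the rise in single calves, as a log2 difference, lay between 2.48 and 3.48.

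The largest fall was that of ENSBTAG00000021161, which was nearly gone from blood by 48 h. The levels of calves 1 to 7 at 0 h were 1.15, 2.54, 3.41, 5.98, 9.72, 3.37 and 6.21 CPM. At 48 h the gene had 0 to 3 counts per library, 8 in all against 849 at 0 h, with a highest level of 0.109 CPM. Calf 1 had the lowest and calf 5 the highest level at 0 h, and calf 1 fell least. The log2 fold change was -6.56 (SE 0.47, adjusted p = 1.6e-05, edgeR), and the exact 95% interval of the ratio of the summed counts put 0 h at 57.8 to 266 times the level at 48 h. This interval also covers counting error only, not the spread between calves, and rests on the 8 counts at 48 h.

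ENSBTAG00000020661 had the smallest p-value of all genes tested. Its level ran from 53.4 to 138 CPM at 0 h with a median of 71.5 and from 8.21 to 18.2 CPM at 48 h with a median of 11.4. Calf 6 was highest at both ages, and the lowest level at 0 h was above the highest at 48 h. The log2 fold change was -2.69 (SE 0.097, adjusted p = 4.6e-07, edgeR), and the fall in single calves, as a log2 difference, lay between -3.04 and -2.34.

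The course of these 4 genes after 48 h differed. ENSBTAG00000016698 had a median of 4.08 CPM at 72 h (range 1.08 to 12.1) and of 1.2 CPM at 168 h (range 0.478 to 2.75), so that no calf returned to its range at birth. ENSBTAG00000035998 had a median of 116 CPM at 72 h and of 80.5 CPM at 168 h, where the lowest calf had 49.9 CPM and was still above the highest level at 0 h. ENSBTAG00000021161 stayed at 0 to 2 counts per library at both later ages. ENSBTAG00000020661 had a median of 14.5 CPM at 72 h and of 21.5 CPM at 168 h, with a highest calf of 34.7 CPM, below the lowest level at 0 h.

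**Figure D3:**
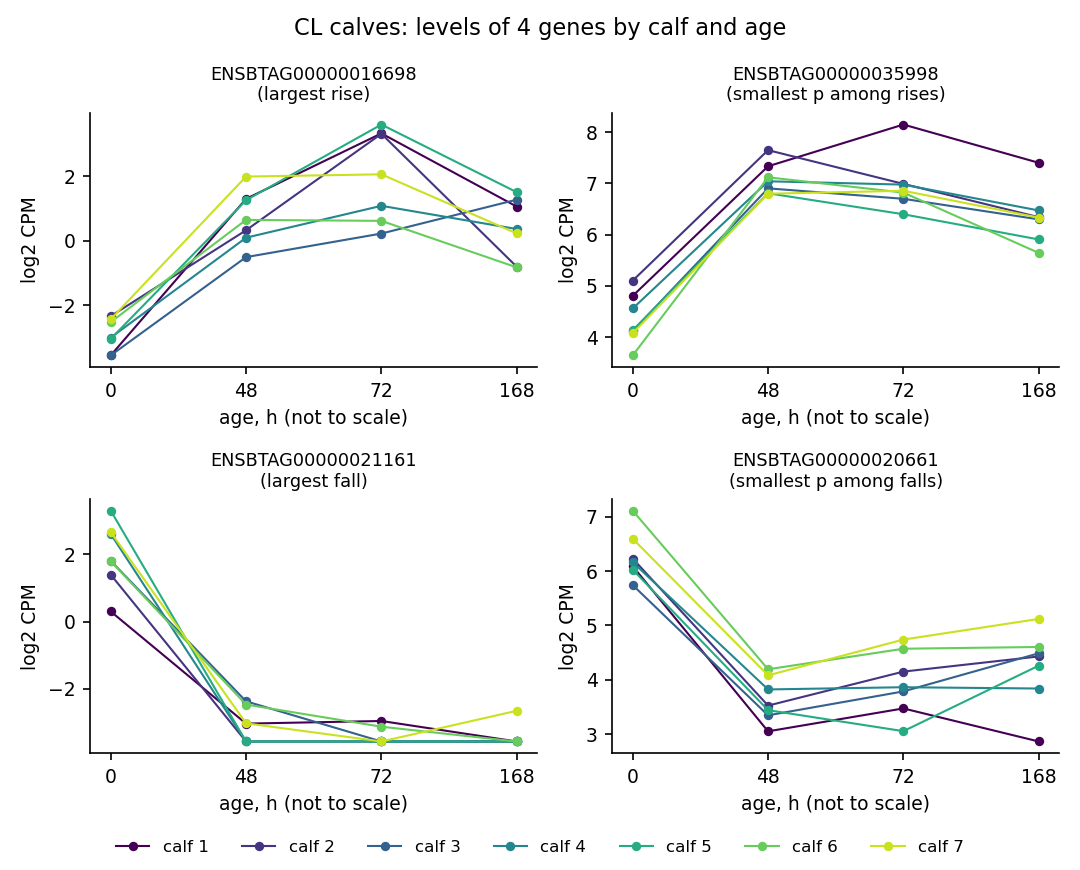
Levels of ENSBTAG00000016698, ENSBTAG00000035998, ENSBTAG00000021161 and ENSBTAG00000020661 in log2 CPM (y axis) by age in h (x axis, not to scale), with 1 line per CL calf. In each panel the 7 levels at 0 h lie apart from the 7 levels at 48 h, and no calf returns to the range at 0 h by 168 h.

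The falls varied between calves, and calf 1 stood apart from the others in them. The median log2 change over the 1017 rises lay between 0.85 and 1.17 in single calves. Over the 1116 falls it was -0.42 in calf 1 and between -1.16 and -0.74 in the other 6. Calf 1 went against the called direction in 236 of the falls, and the other calves in 12 to 47 each. Of the 339 falls that 6 of 7 calves shared, calf 1 was the exception in 226. Of the rises, calf 1 went against 23, within the range of 9 to 45 over all calves. The calf medians come from the genes called in the same calves and are given as a description.

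The smaller falls of calf 1 came from both of its libraries. At 0 h its level of the genes that fell was below the mean of the 7 calves by a median log2 difference of -0.28, the lowest of all, and at 48 h it was above the mean by 0.18, the highest of all. The genes that fell held 6.31% of the counts of calf 1 at 0 h and 5.61% at 48 h, against 7.69% to 10.0% and 4.11% to 4.58% in the other calves. Across all 12852 genes the change in calf 1 had a Pearson's r of 0.558 with the mean change of the other 6 calves, and that of each other calf had 0.692 to 0.82. Its libraries held 19083485 and 24663156 counts on genes, within the ranges of the other calves. Its 48 h library had the highest share of reads outside genes (24.95%) and the lowest share of multimapping reads (7.2%) of that age, and the part of these in its smaller falls was not tested. Without calf 1, 1043 genes rose and 1285 fell.

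The median SD of log2 CPM over the 7 calves was 0.24 at 0 h and 0.228 at 48 h, and 46.3% of genes had the larger SD at 48 h. At 72 h and 168 h the median SD was 0.276 and 0.24. The change from 0 h to 48 h had a median SD between calves of 0.489 on the log2 scale among the rises and 0.515 among the falls, against 0.258 among the 10719 genes not called. DEG were chosen by the size of their change and were most frequent among genes of low abundance, whose counts scatter more. The part of both in their larger SD was not tested.

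Most of the DEG still had a mean at least 1.5-fold from that at 0 h, in the called direction, at 168 h. Means of log2 CPM at the later ages were set against the mean at 0 h as a description, since the same 0 h libraries had chosen the genes. That choice favours a distance from 0 h at every later age. The same shares over all genes tested were not computed. Of the 1017 genes that rose, 840 (82.6%) were at least 1.5-fold above 0 h on this scale at 72 h and 738 (72.6%) at 168 h. Of the 1116 genes that fell, 1003 (89.9%) were at least 1.5-fold below 0 h on the same scale at 48 h, 656 (58.8%) at 72 h and 761 (68.2%) at 168 h. At both later ages the change held for 657 rises (64.6%) and 574 falls (51.4%), and it held at neither for 96 rises (9.44%) and 273 falls (24.5%).

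The genes were chosen for their change at 48 h, which favours that age in any comparison with the later ones. The median log2 difference from 0 h over the genes that rose was 1.00 at 48 h, then 1.19 at 72 h, and was 0.88 at 168 h. The farthest point from 0 h was reached at 48 h by 321 of them, at 72 h by 424 and at 168 h by 272. Over the genes that fell the median was -0.85 at 48 h, -0.70 at 72 h and -0.82 at 168 h, and the lowest mean was reached at 48 h by 487, at 72 h by 171 and at 168 h by 458. These differences between later ages were not tested.

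The share of counts on the genes that rose ran from 3.81% to 4.41% at 48 h, from 3.69% to 6.05% at 72 h and from 3.47% to 5.93% at 168 h. Calf 1 had the highest share at 72 h and calf 2 at 168 h, where the other 6 calves had 3.47% to 4.37%. The share on the genes that fell ran from 4.14% to 6.0% at 72 h and from 3.62% to 5.45% at 168 h, below all 7 shares at 0 h.

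**Figure D4:**
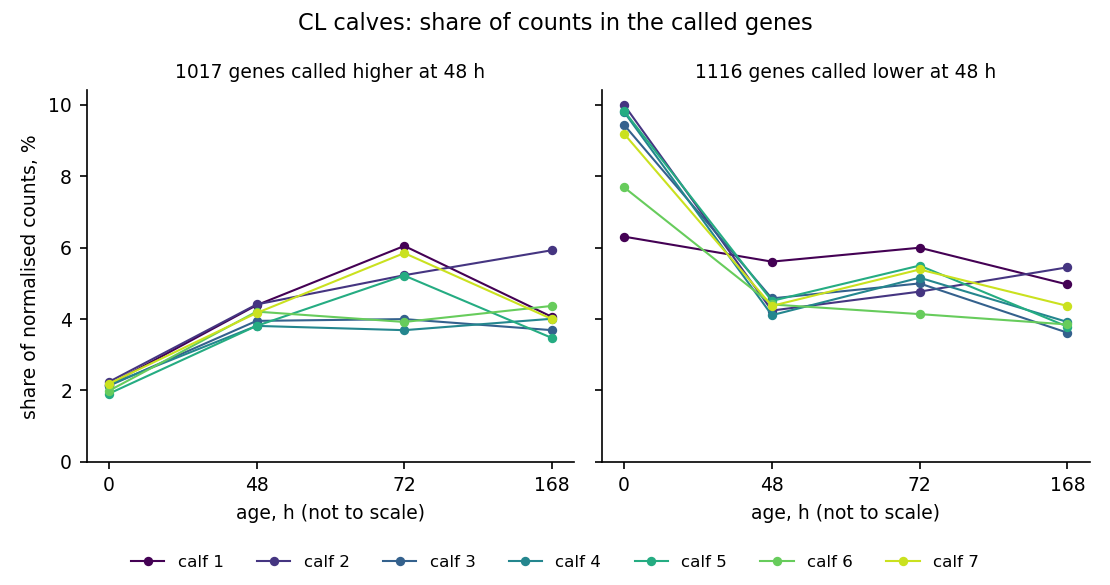
Share of normalised counts in percent (y axis, from 0) held by the 1017 genes called higher at 48 h (left) and by the 1116 called lower (right), by age in h (x axis, not to scale), with 1 line per CL calf. The left panel rises from 1.91% to 2.24% at 0 h to 3.81% to 4.41% at 48 h, and in the right panel calf 1 starts at 6.31% while the other calves start at 7.69% to 10.0%.

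LF calves, which were kept in the same way, showed much of the same response. The same fit in LF calves called 1063 genes higher (8.31% of 12794) and 789 lower (6.17%) at 48 h. Of the CL rises, 988 were tested in LF calves, 609 (61.6%) were called higher there and 0 lower, with a median log2 fold change of 0.92 in LF and 0.98 in CL calves. Of the CL falls, 1088 were tested, 440 (40.4%) were called lower and 2 higher, with a median of -0.56 in LF and -0.90 in CL calves. These genes were chosen in CL calves, and with the choice made in LF calves instead, the rises had a median of 1.01 in LF and 0.73 in CL calves, and the falls -0.97 in LF and -0.72 in CL calves.

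H calves came from another farm than CL calves and were taken from their dams soon after birth, so breed, farm, separation and feeding cannot be told apart. They had 742 genes called higher (5.93% of 12508) and 655 called lower (5.24%) at 48 h. Without the calf as a block, 496 genes were called higher and 372 lower in H calves. Of the CL rises, 949 were tested in H calves and 553 (58.3%) were called higher, with a median log2 fold change of 0.74 in H and 0.96 in CL calves. Of the CL falls, 1063 were tested and 494 (46.5%) were called lower, with a median of -0.61 in H and -0.90 in CL calves. No CL DEG was called in the opposite direction in H calves (0 genes). The genes chosen in H calves had changed about as much in CL calves, with medians of 0.98 in CL and 0.96 in H calves for the rises and of -1.03 and -0.92 for the falls.

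Of the CL rises, 941 were tested in all 3 breeds, 458 of them (48.7%) were called higher in both LF and H calves and 258 (27.4%) in neither. Of the CL falls, 1055 were tested in all 3 breeds, 320 (30.3%) were called lower in both and 462 (43.8%) in neither. Whether these shares differ between rises and falls was not tested. The rises called in all 3 breeds were the larger ones, with a median log2 fold change of 1.25 in CL calves, 1.38 in LF calves and 1.07 in H calves. The 462 falls called lower in neither LF nor H calves had a median of -0.73 in CL, -0.22 in LF and -0.28 in H calves. Of them, 347 had a negative log2 fold change in both other breeds without meeting both thresholds of a call. Missing the threshold in the other breeds does not show that these genes changed in CL calves alone.

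**Figure D5:**
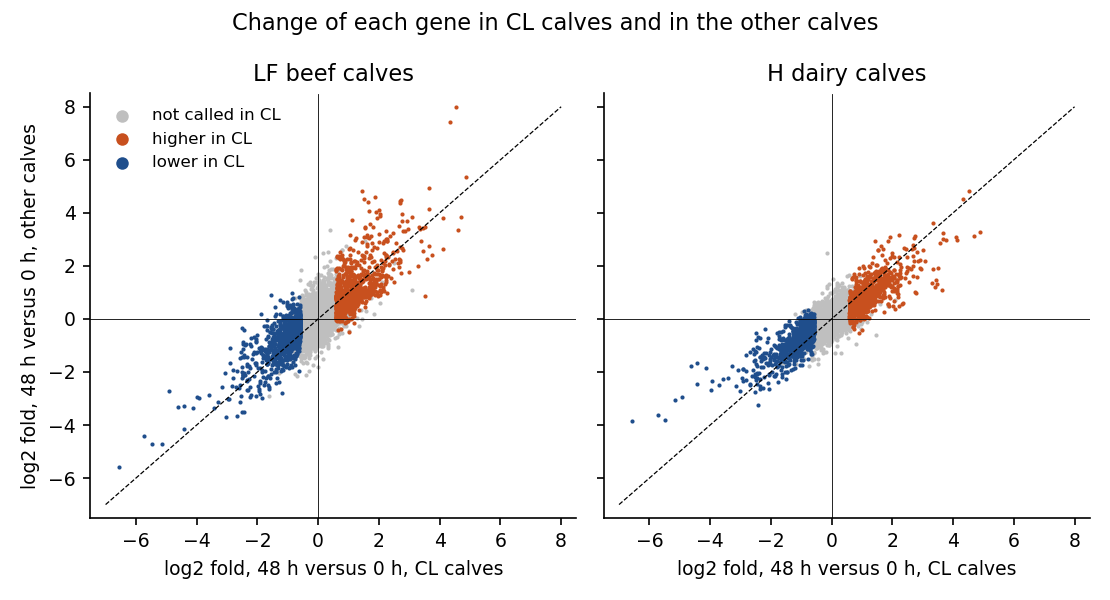
Log2 fold change at 48 h versus 0 h of each gene in CL calves (x axis) against that in LF calves (left) and H calves (right, y axis), with the dashed line marking equal change. Orange points are genes called higher and blue points genes called lower in CL calves, most of which lie on the same side of 0 in the other calves, with the falls lying closer to 0 there.

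The difference in response between CL and LF calves was tested directly, as the interaction of breed and age with the calf as a block. By edgeR's quasi-likelihood test 1 of 13339 genes (0.0075%) passed the thresholds, while 3080 genes (23.1%) had an unadjusted p under 0.05. DESeq2 with the calf as a block called 501 of the 20216 genes with any count. Of these, 91 had a higher and 410 a lower log2 change in CL calves. On the same 20216 genes, without its filter on low counts, edgeR called 1, so the number called depended on the tool. Between 0 and 8 genes were called by edgeR when each calf was left out in turn, and 8 without LF calf 5. No gene was called without CL calf 3, CL calf 4, LF calf 1, LF calf 2 or LF calf 7 (0 genes in each fit).

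The gene called was ENSBTAG00000009786, which was singled out after its values were seen. It rose in both groups. In CL calves it ran from 1.66 to 10.6 CPM at 0 h (median 2.74) and from 8.2 to 25.6 CPM at 48 h (median 14.9), with a log2 fold change of 2.05 (SE 0.2, adjusted p = 8.4e-05, edgeR). In LF calves it ran from 1.8 to 9.59 CPM at 0 h (median 2.09) and from 22.0 to 122 CPM at 48 h (median 37.6), with a log2 fold change of 3.97 (SE 0.14, adjusted p = 8.9e-07, edgeR). The levels of the breeds overlapped at 0 h, and at 48 h the 2 highest CL calves reached the range of the LF calves. The log2 change was lower in CL calves by -1.92 (SE 0.26, adjusted p = 0.02, edgeR). In H calves the log2 fold change was 1.84 (SE 0.19, adjusted p = 4.6e-05, edgeR), closer to that of CL than of LF calves. The difference of CL minus H calves was 0.206 (SE 0.29, adjusted p = 0.81, edgeR). By 168 h the medians were 5.97 CPM in CL calves and 4.64 CPM in LF calves.

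Between CL and H calves, 0 of 13210 genes (0%) passed by edgeR's test of the interaction, with 1545 genes (11.7%) at an unadjusted p under 0.05 and a smallest adjusted p of 0.166. DESeq2 with the calf as a block called 52 of the 20187 genes with any count, and edgeR without its filter called 0 of them. Of the 52, 22 had the higher and 30 the lower log2 change in CL calves. With each calf left out in turn, edgeR called 2 genes without CL calf 1, 1 without CL calf 7 and 0 in the other fits. The 4 genes with the largest changes or smallest p-values in CL calves were also called in LF and H calves. ENSBTAG00000016698 rose by a log2 fold of 5.35 in LF and 3.29 in H calves, and ENSBTAG00000035998 by 2.71 and 2.19. ENSBTAG00000021161 changed by -5.59 and -3.87, and ENSBTAG00000020661 by -2.56 and -2.46. None of the 4 passed either interaction test by edgeR, with adjusted p-values from 0.34 to 1.0. At 48 h ENSBTAG00000021161 was at 0 to 0.354 CPM in LF calves and at 0 to 1.92 CPM in H calves.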

How the data were processed

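Whole blood RNA of each calf and age was made into 1 single-end library. Per the study's methods and the submitters' processing notes, the authors trimmed reads with cutadapt, checked them with FastQC and counted them per gene with STAR on UMD3.1, and they rejected samples with few reads; tool versions are not given in the sources used here. The deposited values are raw counts per Ensembl gene. The unstranded count was used, and unmapped, multimapping, unassigned and ambiguous reads were left out. Multimapping reads are not counted on genes, which can lower the values of multicopy genes. Without strand, overlapping and antisense genes cannot be told apart.

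Counts were tested with edgeR 4.0.16 in R 4.3.3 (TMM, default filter on low counts, robust quasi-likelihood test, calf as a block, Benjamini-Hochberg adjustment). The study used DESeq2, run here as an alternative (1.42.0). DEG were genes whose adjusted p was under 0.05 and whose level changed 1.5-fold or more. Levels are CPM with TMM factors over all 88 libraries, and log2 CPM used a prior count of 2. Exact tests used Python 3.11.15, numpy 2.4.6 and scipy 1.17.1. Scripts were tested on simulated data.

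Calves were paired by tag number. One 48 h title repeats a replicate number, and its tag made it calf 7. The calf block was kept because the samples of a number come from the same animal, and the deviations of a calf at the 2 ages correlated at 0.246 or more in 7 of 7 calves. Calves are the replicates. In the fits with the calf block, p-values set the mean change within calves against how far that change varied between calves. Among the 42 pairs of libraries of the same age, chi-square divided by its degrees of freedom was at least 44.2, so no library was found deposited more than once. Labels carry an L number of unstated meaning. Among the 14 CL libraries, an R of unstated meaning follows it only in that of calf 7 at 48 h. Without calf 7, 1101 genes rose and 1003 fell. Only 1 of the L numbers occurs at both ages, so the comparison could not be repeated within an L number, which was entered as a covariate in a fit of all 88 libraries instead.

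The comparison and the lists were chosen with earlier results of these data known. The named genes had, among DEG, the greatest rise and the greatest fall (at least 1 CPM at the higher age, same direction in all 7 calves), or the smallest p-value in each direction. Any gene called in an interaction was added. The rule would have named more genes and 2 further identifiers. These, the gene lists, the blood cell markers and a search of promoters need symbols and were not used, and at most 2 identifiers are given per direction.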

Additional observations from a re-analysis of the deposited data

Results flagged for a closer look

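In 34 groups of 7 values checked, Dixon's criterion at the 95% level marked 4, where chance marks about 1 in 20. Calf 1 went against the called direction in 236 of the falls, and the other 6 calves in 12 to 47. The other 3 all concern the 0 h library of calf 5, in which 57.7% of reads were counted on genes (62.9% to 66.3% in the other 6), 15.6% mapped to several places (7.19% to 10.4%) and 3.71% of counts fell on the most abundant gene (0.697% to 1.43%). The 48 h library of the same calf had 18.0% and 7.35% for the last 2 measures. Without calf 5, 995 genes rose and 1009 fell.

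The response of ENSBTAG00000009786 differed between CL and LF calves by the test of the interaction, with a log2 difference of -1.92 (SE 0.26, adjusted p = 0.02, edgeR). It was higher at 48 h in 7 of 7 CL calves. Its log2 fold change was 2.05 in CL, 3.97 in LF and 1.84 in H calves. In 5 of the 14 fits that each left out 1 calf (CL calf 3 or 4, or LF calf 1, 2 or 7) no gene passed.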

How the results depend on the processing

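The number of DEG at 48 h versus 0 h in CL calves was 2133, and 18 of 20 alternatives gave a number within 1.5 times of it. Without the pairing of calves (no replicate block) it was 1914. Leaving out each calf in turn gave 1958 to 2328, the latter without calf 1. The other 2 alternatives changed the threshold itself, with 5350 genes when no fold change was asked for and 799 when edgeR's null was a change of up to 1.5-fold. DESeq2 with the calf as a block called 2310 of the 19325 genes with any count. Fits of all 88 libraries without and with the L number called 2224 and 1928. Of the 2133 DEG, the fits of all 88 libraries shared 1933 without and 1594 with the L number. These fits and the one on library size alone were chosen after seeing the data. The 4 genes given for CL calves kept their direction and their call in all 19 or 20 alternatives that tested them. They had been chosen as extremes of the main fit, and the alternatives used the same libraries, so this is no independent support. For the difference between CL and LF calves the number called was 1, against 0 without the replicate block, 501 with DESeq2 and 0 to 8 with each calf left out. For CL and H calves it was 0, against 52 with DESeq2 and 0 to 2 with each calf left out (2 without CL calf 1). The cause of the difference between the tools was not tested. The alternative without globin genes and those for gene lists were not run, because they need gene symbols. Genes at 3 counts or fewer per library cannot be told from absent at these depths.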
